A study of Drosophila melanogaster with 2 samples.

Results

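The cytosolic ribosomal protein genes of Drosophila melanogaster were examined for chromatin peaks of Rx-eGFP, in which the homeodomain protein of the gene Rx (retinal homeobox) is fused to eGFP. The genes were taken by symbol (RpL or RpS followed by a digit, or RpLP) from the protein-coding genes of the Ensembl annotation, with the mitochondrial genes (mRpL and mRpS) left out. This gave 92 of 13968 genes on the chromosome arms. By symbol, 54 were placed with the large ribosomal subunit (RpL, RpLP) and 38 with the small subunit (RpS). Genes with the suffix -like were placed by symbol too, whether or not their proteins are part of the ribosome. The symbol rule uses no measured value, but the genes were chosen with earlier results of these data known.

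Chromatin immunoprecipitation with an antibody against GFP was followed by sequencing in whole embryos from 0 to 24 h of age, all of which carried the Rx-eGFP transgene. There was 1 group with 2 biological replicates, so no condition was compared with another, and no values from embryos without the tag were analysed here. The sources used here do not name the promoter that drives the transgene or the sex of the embryos. Whole embryos mix cell types, so a peak cannot be assigned to a cell type, and peak lists hold no expression values with which the labelled stage could be checked. The conservative list of the whole series, called the series-wide list below, held 3303 peaks, of which 3250 lay on the arms, and the replicates' own thresholded lists held 2438 and 2209. Read depth is unknown. Intervals below are 95% Wilson intervals, which cover counting error over genes or peaks and not the spread between embryo collections.

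Cytosolic ribosomes join these proteins to ribosomal RNA, and their genes are among the most strongly transcribed in growing cells. Loss of a single copy of many of them gives the Minute phenotype in flies, with slow development and thin bristles. In flies their promoters are known for a polypyrimidine initiator at the start site, for dependence on the TBP-related factor Trf2, and for sites of the promoter proteins M1BP and DREF. Rx itself belongs to the paired class of homeodomain proteins, whose known core site is TAATTA, and it acts in the embryonic head and brain.

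Most ribosomal protein genes carried an Rx-eGFP summit, and most of those summits lay at the start of the gene. Within the gene or 2 kb of it, a summit of the series-wide list was found for 62 of 92 genes (67.4%, interval 57.3 to 76.1%), against 26.5% of all protein-coding genes. Within 500 bp of an annotated start of the gene, the count was 53 of 92 (57.6%, interval 47.4 to 67.2%), against 13.2% of all genes. Ribosomal protein genes are short, from 304 to 4677 bp with a median of 1315 bp, while the median of all genes was 2164.5 bp. Among genes no longer than the longest ribosomal protein gene, the shares were 21.2% within 2 kb and 11.4% near a start.

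Each replicate's own list gave nearly the same picture. In replicate 1, a summit lay within 2 kb of 55 of the 92 genes, against 21.3% of all genes, and near a start of 47, against 10.4%. In replicate 2 the counts were 58 against 20.0% of all genes, and 53 against 9.59%. A start summit was listed for 44 genes in the series-wide list and in both replicates. The genes RpS26 and RpS6 had one in the series-wide list and replicate 1, and RpL18, RpL29, RpS12 and RpS18 in the series-wide list and replicate 2. RpLP0-like and RpS28a had theirs in the series-wide list and in neither replicate's own list. Conversely, RpL12, RpL26, RpL3, RpS14a and RpS27A had a start summit in 1 replicate and not in the series-wide list, and no gene had one in both replicates without it. With the 2 kb rule, RpLP0-like, RpS15Ab, RpS28a, RpS3 and RpS9 were bound in the series-wide list and in neither replicate, and no gene was bound in both replicates alone. A less strict series-wide list gave 64 genes within 2 kb, against 27.3% of all genes, and 58 near a start, against 13.5%. It held every start summit of the conservative list and added, among others, RpL26, RpL3, RpLP1 and RpS14a. With the 2 kb rule it lacked RpS3 and RpS15Ab.

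Peak height here is the signal value that the authors deposited for each peak. Its scale is unknown, so it was used for ranks and comparisons inside a list. The 53 start peaks of ribosomal protein genes were distinct peaks, 1.63% of those on the arms. Their heights ran from 57.83 to 444.9 with a median of 149.6 and quartiles of 109.1 and 202.1. The median was 90.1 over all arm peaks, 99.84 over the 1387 peaks within 500 bp of any coding start, and 106.8 over the highest start peak of each of 1837 genes. Of the 53, 46 lay in the upper 50% of arm peaks (86.8%), 29 in the upper 25% (54.7%) and 8 in the upper 10% (15.1%). Their ranks among the 3250 arm peaks ran from 82 to 2761, with a median of 770.

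**Figure D1:**
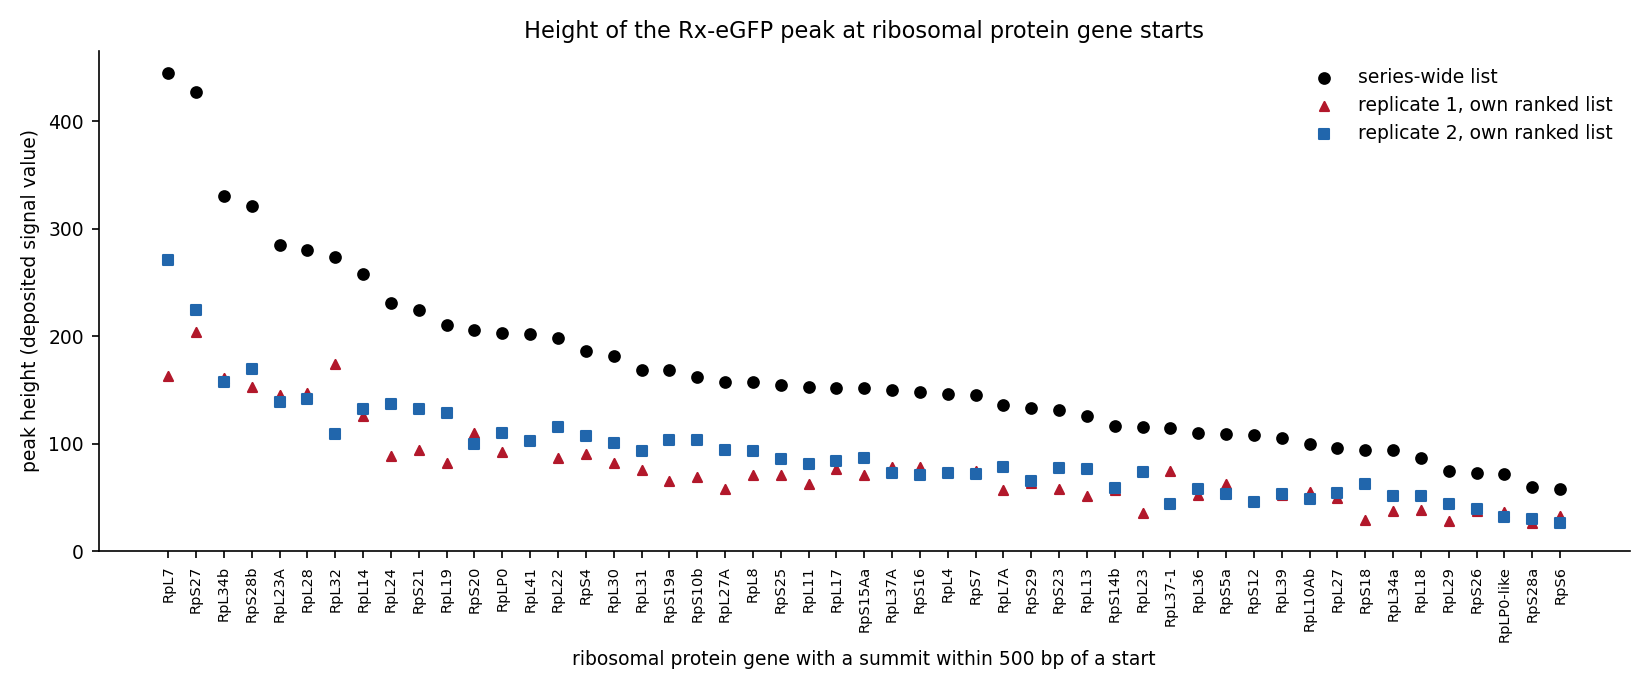
Height of the start peak (authors' signal value, linear axis from 0) for the ribosomal protein genes with a summit within 500 bp of a start that are reported by name, ordered by the series-wide value. Black circles are the series-wide list, red triangles replicate 1 and blue squares replicate 2, each from its own ranked list. RpL7 at 444.9 and RpS27 at 427.4 stand above the rest, RpS6 at 57.83 is lowest, and RpS12 has no replicate 1 point.

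Among genes of the large subunit, 32 of 54 had a start summit (59.3%, interval 46.0 to 71.3%), with a median height of 152.4. The highest belonged to RpL7, at 2L:10200951-10201135, with a height of 444.9 in the series-wide list, 163.2 in replicate 1 and 271.5 in replicate 2. Its summit lay 28 bp after the start, in a non-coding exon. The next was RpL34b, at 3R:9401203-9401358, with 330.4 in the series-wide list, 160.9 in replicate 1 and 157.4 in replicate 2. RpL23A, whose protein lines the mouth of the tunnel through which the nascent chain leaves, had a peak of 285.2 at 3L:1668646-1668789, with 145.0 and 139.3 in replicates 1 and 2. RpL28 had 280.0 at 3L:3222925-3223069, with 147.3 and 141.3. The replicates stood close to each other at RpL34b, RpL23A and RpL28, while at RpL7 replicate 2 was clearly the higher. RpL32, known to fly workers as the reference gene rp49, had 274.0 in the series-wide list, 174.1 in replicate 1 and 109.2 in replicate 2. That summit lay 168 bp before the start of RpL32 but 141 bp from the start of CG7943, its nearest. RpL14 followed with 258.1 and RpL24 with 230.9. RpL11, whose protein binds 5S ribosomal RNA together with that of RpL5, had a peak of 152.7, while RpL5 had none. The stalk, which recruits translation factors, was split in the same way: RpLP0 had a peak of 202.8, with 92.00 in replicate 1 and 109.7 in replicate 2, and RpLP1 and RpLP2 had none in the series-wide list or in the replicates' own lists.

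Among genes of the small subunit, 21 of 38 had a start summit (55.3%, interval 39.7 to 69.9%), with a median height of 145.7. The intervals of the large and small subunit overlapped. RpS27, a zinc finger protein of the small subunit, had the highest, at 3R:25247415-25247604, with 427.4 in the series-wide list, 203.9 in replicate 1 and 224.9 in replicate 2. Its summit lay 2 bp before the start. RpS28b followed at X:9554512-9554667 with 321.4 in the series-wide list, 153.3 in replicate 1 and 169.3 in replicate 2, and then RpS21 with 224.8, 94.54 and 132.5. At these 3 genes, replicate 2 was the higher. RpS12, which in flies takes part in cell competition between cells that differ in ribosomal protein gene dose, had 108.4 in the series-wide list and 45.44 in replicate 2, with no overlapping peak in the ranked list of replicate 1. The lowest start peak was that of RpS6, the target of S6 kinase in growth signalling, with 57.83 in the series-wide list, 32.45 in replicate 1 and 26.62 in replicate 2. RpS28a (59.33), RpLP0-like (72.08), RpS26 (73.24) and RpL29 (75.05) were also among the lowest. Of these, RpS6 and RpS26 were also listed in replicate 1 and RpL29 in replicate 2.

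The promoters of the 6 highest start peaks are printed here to show what lay under the summits, beside those of 2 genes with no summit within 2 kb, chosen after their values were seen. Each runs from 100 bases before the annotated start to 50 bases beginning at it, on the gene's strand, from the RefSeq Release 6 genome. Capitals mark matches on either strand to CGATA (the BEAF-32 site, also the core of the DREF site), GGTCACAC (the M1BP site) and CAGCCAA (a word described with the sequence results), and the polypyrimidine initiator.
RpL7, 2L:10200904-10201053, plus strand: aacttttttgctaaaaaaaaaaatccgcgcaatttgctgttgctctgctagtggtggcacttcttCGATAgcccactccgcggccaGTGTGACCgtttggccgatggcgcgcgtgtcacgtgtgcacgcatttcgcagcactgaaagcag
RpS27, 3R:25247465-25247614, minus strand: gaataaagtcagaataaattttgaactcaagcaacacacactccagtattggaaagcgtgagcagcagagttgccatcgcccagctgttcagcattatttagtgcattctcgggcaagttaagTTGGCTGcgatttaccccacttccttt
RpL34b, 3R:9401177-9401326, minus strand: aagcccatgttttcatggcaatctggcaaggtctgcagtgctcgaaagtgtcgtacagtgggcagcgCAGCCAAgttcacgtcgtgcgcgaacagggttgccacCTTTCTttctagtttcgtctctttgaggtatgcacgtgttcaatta
RpS28b, X:9554523-9554672, plus strand: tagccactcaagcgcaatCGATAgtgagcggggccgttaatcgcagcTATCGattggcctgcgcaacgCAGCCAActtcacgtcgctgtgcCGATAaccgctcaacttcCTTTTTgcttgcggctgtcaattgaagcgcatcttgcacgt
RpL23A, 3L:1668605-1668754, minus strand: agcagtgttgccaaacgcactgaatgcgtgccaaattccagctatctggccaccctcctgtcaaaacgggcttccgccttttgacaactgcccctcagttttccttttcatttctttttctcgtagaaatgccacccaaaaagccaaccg
RpL28, 3L:3222911-3223060, minus strand: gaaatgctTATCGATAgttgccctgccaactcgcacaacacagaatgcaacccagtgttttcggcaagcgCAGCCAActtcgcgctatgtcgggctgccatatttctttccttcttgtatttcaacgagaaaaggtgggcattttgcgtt
RpL40, 2L:4227599-4227748, plus strand, no summit: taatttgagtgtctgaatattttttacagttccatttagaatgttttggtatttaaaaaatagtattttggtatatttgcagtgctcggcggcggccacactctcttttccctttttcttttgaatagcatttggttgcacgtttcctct
RpL10Aa, 3R:15037266-15037415, plus strand, no summit: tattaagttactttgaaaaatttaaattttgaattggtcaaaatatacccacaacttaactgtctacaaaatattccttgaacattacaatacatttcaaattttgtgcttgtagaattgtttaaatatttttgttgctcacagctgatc
The promoters of RpS27, RpL34b, RpS28b and RpL28 held CAGCCAA, that of RpL7 an M1BP site, and that of RpL23A none of the marked sequences. No letters were marked in either unbound promoter. These 2 do not stand for the unbound genes. In the longer window of the sequence results, CGATA was in 17 of the 30 genes with no summit within 2 kb (56.7%). It was in 49 of the 62 genes with one (79.0%).

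Start peaks of ribosomal protein genes sat closer to the start than those of other genes. Their summits lay a median of 30 bp before the start (quartiles -51 and -2 bp), while over all 1837 genes with a start peak the median was -130 bp. Of the 53 summits, 48 were within 100 bp of the start (90.6%, interval 79.7 to 95.9%), against 34.1% over all such genes (interval 32.0 to 36.3%). Within 50 bp there were 38 (71.7%), against 14.4%. Fewer lay upstream, 40 of 53 (75.5%), against 87.3%. Where the gene's own start was also the nearest coding start of any gene, 48 of 49 ribosomal protein summits were within 100 bp (98.0%), against 44.1% of 1318 genes. The summits of RpL32, RpS20 and RpS28a were among those nearer to another gene's start. That of RpS28a lay 498 bp past its start and beyond the end of the gene, next to Mgat2.

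**Figure D2:**
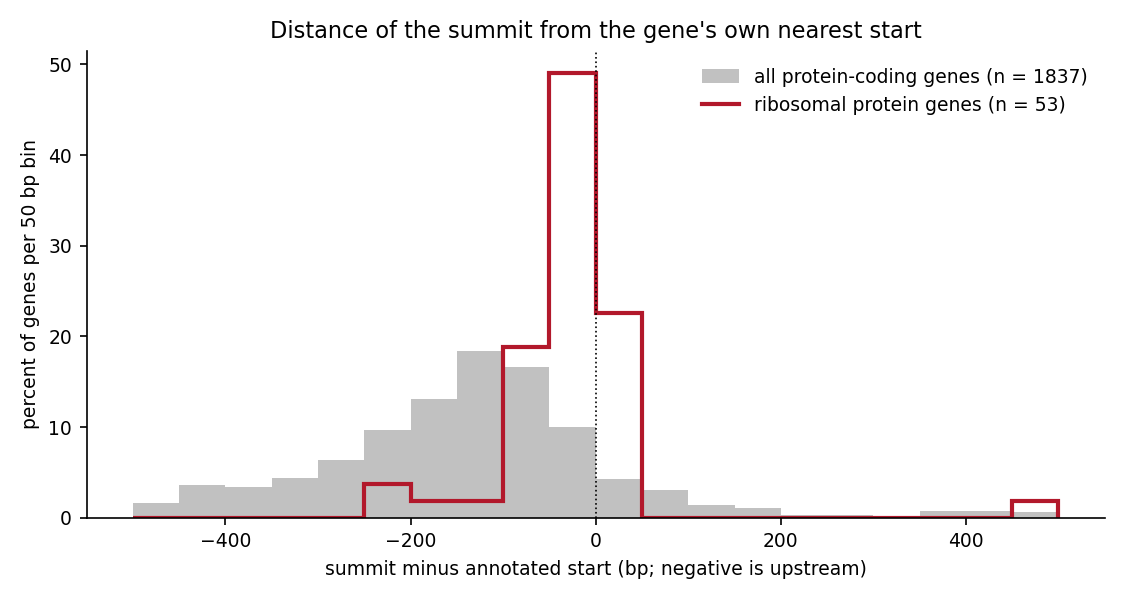
Distance of the start-peak summit from the nearest annotated start of the gene (bp, negative is upstream), as the percent of genes in bins of 50 bp. The red line is the 53 ribosomal protein genes and grey bars are all 1837 genes with a start peak. The ribosomal protein summits gather just before the start, with 48 of 53 within 100 bp.

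A summit within 2 kb but not near a start was found for RpL12, RpL3, RpS13, RpS14a, RpS15Ab, RpS19b, RpS3, RpS5b and RpS9. At these genes the summit lay nearest to the start of another gene, except at RpS3, where it lay 1121 bp before the start of RpS3 itself. RpL3, for example, was bound through a peak of 295.9 that was 64 bp from the start of CG17726. Across the 62 genes, the highest peak within 2 kb was nearest to another gene's start in 15. Among the highest of these were those at RpL3, RpL32 and RpS19a (232.6, nearest to mthl1). In all, 12 genes had more than 1 summit within 2 kb, among them RpL18, RpL23, RpL31, RpL32, RpL34b, RpS12, RpS14a, RpS14b, RpS19a, RpS25 and RpS28b. Only RpS25 had 3. Its start peak had 155.0, and the others, 44.55 and 7.218, lay nearest to ZnT86D. In each of these genes at least 1 of the summits was nearest to another gene's start, such as CG34117 at RpL34b (97.79), Sry-delta at RpL32 (118.1) and l(1)G0320 at RpS28b (127.7).

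Replicate heights followed each other across the ribosomal protein start peaks. Spearman's rho was 0.847 over the 52 peaks with a height in both replicates, given as a description because the peaks share the same 2 libraries and were selected on their rank in both. In 50 of the 52 the replicates were within a factor of 2. The median height was 70.9 in replicate 1 (26.18 to 203.9) and 78.45 in replicate 2 (26.62 to 271.5). Replicate 1 was the higher at 16 of 52 (30.8%), whereas it was the higher at 1876 of 3204 arm peaks (58.6%) and at 61.8% of 1368 promoter peaks. The median log2 ratio of replicate 1 to replicate 2 was -0.165 at ribosomal protein starts and 0.098 over all arm peaks. Among ribosomal protein starts, the peaks of RpL23 (35.42 and 73.69) and RpS18 (28.71 and 62.32) were higher in replicate 2 by over a factor of 2. RpL37-1 (74.90 and 43.88) and RpL32 leaned the other way. With 2 replicates and no stated scale, no test was made of this lean.

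**Figure D3:**
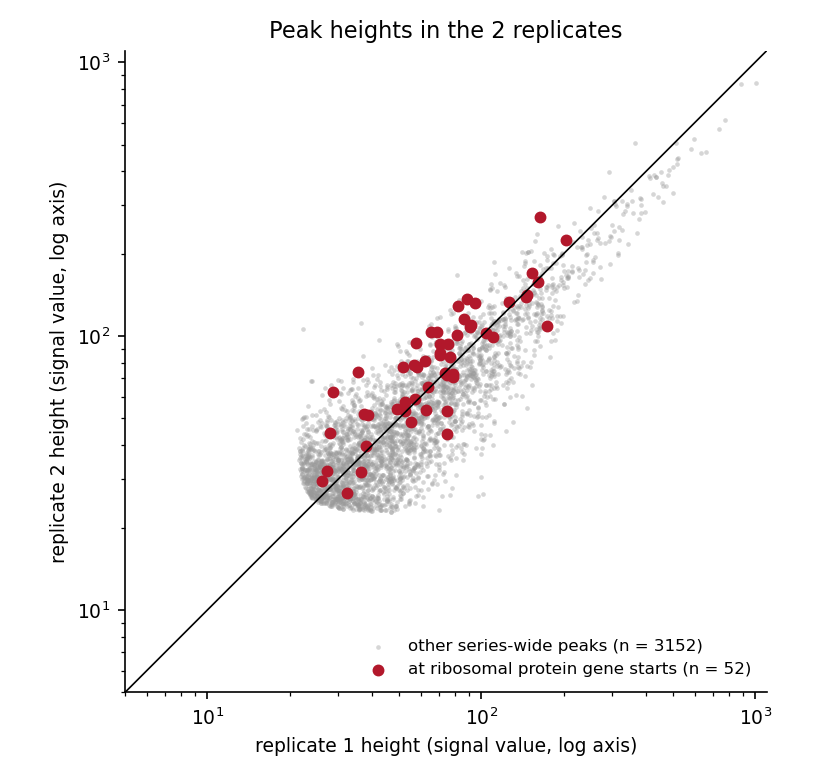
Height of series-wide peaks in replicate 1 (x) and replicate 2 (y), both log axes of the authors' signal value. Red points are the 52 ribosomal protein start peaks with both values, grey points the other arm peaks, and the line marks equal height. More red points lie above the line (36) than below it (16), while 58.6% of all arm peaks lie below it.

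Genes with a near-copy or a relative named -like were often split, with a peak at 1 gene and none at the other. Of 25 genes with a paralog by symbol, 15 had a start summit (60.0%), and of the 67 without one, 38 had (56.7%). RpL22 had a start peak of 198.3, but RpL22-like, which is used in the fly testis, had none. RpL24 (230.9) and RpL7 (444.9) had one, while RpL24-like and RpL7-like, relatives of yeast factors that assemble the large subunit, had none. RpS10b (162.3) was bound and RpS10a was not, and RpL10Ab (99.55) was bound and RpL10Aa was not. RpL37-1 (114.5) was bound and RpL37-2 was not, a pair that the symbol rule did not catch. RpS28b (321.4) was bound and RpS28-like was not, and RpS28a had only the distant peak beside Mgat2.

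At RpS5a (109.1), RpS15Aa (151.6) and RpS19a (168.3) the peak lay within 31 bp of the start. Their copies RpS5b, which is used in the female germline, RpS15Ab and RpS19b had only peaks of 100.9, 57.62 and 86.58 nearest to the starts of CG3817, CG12325 and CG5854. Exceptions were the pairs RpL34b (330.4) and RpL34a (93.86), and RpLP0 (202.8) and RpLP0-like (72.08). In these, both genes had a start peak and the first was the higher. RpS14a and RpS14b are neighbouring copies on X that share the peak of 116.2, whose summit lay 46 bp before the start of RpS14b. The placement of reads from near-identical copies is not described in the sources used here, and its part in these splits was not tested.

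Shares also varied by place and promoter layout, with no test made. By arm, start summits were found at 12 of 14 genes on X (85.7%, interval 60.1 to 96.0%), 10 of 14 on 3L, 12 of 21 on 2R, 11 of 23 on 3R and 8 of 19 on 2L (42.1%, interval 23.1 to 63.7%). RpS3A, the single gene on chromosome 4, had none. Over all genes the share was 12.6% on X and 12.8% on 2L. Where a coding start on the opposite strand faced away within 500 bp, 26 of 36 ribosomal protein genes had a start summit (72.2%, interval 56.0 to 84.2%), and 27 of the other 56 (48.2%, interval 35.7 to 61.0%). The same split over all genes gave 26.7% and 8.08%. Genes that hold a snoRNA, a small RNA that guides ribosomal RNA modification, had a start summit in 19 of 28 cases (67.9%), and others in 34 of 64 (53.1%). All 96 snoRNA host genes together stood at 40.6%, a set that includes those 28. By length, the share was 48.4% among the shortest 31 genes (up to 1073 bp), 56.7% among the middle 30 and 67.7% among the longest 31 (from 1484 bp), against 5.97%, 11.1% and 14.6% of all genes in the same length ranges.

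No start summit was listed for 39 genes. Of these, 26 had a peak of any rank near a start in the long ranked list of the series, with heights from 4.235 to 134.8 and a median of 39.41. Their median −log10 global IDR (irreproducible discovery rate) was 0.42, where every peak of the series-wide list had at least 2.0. The other 13, RpL10, RpL15, RpL21, RpL26, RpL35A, RpL38, RpL5, RpL7-like, RpL9, RpS15, RpS2, RpS27A and RpS3A, had no peak near a start in that list. In replicate 2's own ranked list, however, RpS27A (77.27), RpL26 (47.07), RpL35A (22.83), RpS2 (19.49), RpL21 (13.78) and RpS15 (7.066) had one. Over all 12131 genes with no start summit, 71.9% had a ranked peak near a start. RpL5 spans 2L:22532279-22536884 and RpL15 spans 3L:27267255-27268445, and each lies beyond the last series-wide peak of its arm, which ended at 22487268 and 25443409.

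In 26 genes no summit lay within 2 kb in the series-wide list or in either replicate's own list. They included RpL10, RpL10Aa, RpL13A, RpL15, RpL21, RpL22-like, RpL24-like, RpL35A, RpL36A, RpL37-2, RpL38, RpL40, RpL5, RpL6, RpL7-like, RpL9, RpLP1, RpLP2, RpS10a, RpS15, RpS2, RpS24, RpS28-like, RpS30 and RpS3A. RpL40 and RpS27A make proteins that are fused to ubiquitin; RpL40 had a ranked peak of 4.235, and RpS27A a summit in 1 replicate's own list. The highest ranked peak among all 39 was at RpL13A, with 134.8, between the start peaks of RpL7A (136.0) and RpS29 (133.0) in the series-wide list. RpL36A (52.56), RpL6 (46.30) and RpLP1 (50.06) had −log10 global IDR values of 1.68, 1.70 and 1.75, under the 2.0 of the series-wide list. The lowest start peaks inside the list had heights of 57.83 at RpS6 and 59.33 at RpS28a.

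Shares were lower in other gene lists of the translation machinery, with wide intervals in the short lists. When each summit was given only to the gene with the nearest start, ribosomal proteins stood at 55.4% against 17% of all genes, while mitochondrial ribosomal proteins (11%), initiation factors (13.6%) and synthetases (12.1%) were under that background. Over all genes, the shares were 26.5% within 2 kb and 13.2% near a start. By these rules, the counts were 29 and 15 of 73 for mitochondrial ribosomal proteins (39.7% and 20.5%) and 14 and 6 of 44 for initiation factors (31.8% and 13.6%). They were 12 and 6 of 33 for aminoacyl-tRNA synthetases (36.4% and 18.2%) and 18 and 11 of 41 for ribosome biogenesis factors (43.9% and 26.8%), a list that shares 2 genes with the ribosomal proteins. Elongation and release factors stood nearest to the ribosomal proteins, with 5 and 4 of 9 (55.6% and 44.4%). The elongation factor genes eEF1gamma (284.4, 22 bp before the start) and eEF1alpha1 (206.0, 73 bp before) had the highest peaks of that list. Of 7 RNA polymerase I subunits, 2 were bound within 2 kb (28.6%), Polr1E (105.0) and Polr1D (85.22), and none near a start. For these subunits, initiation factors and synthetases, the intervals contained both shares of all genes. The highest peaks of the other lists were partly those of neighbours: mRpL41 (1124) and eIF6 (602.1) had their own start nearest, but the peak of mRpS23 (957.1) was nearest to CenG1A, that of eIF2Bbeta (1838) to Ugalt, that of AlaRS (660.1) to CG13390 and that of CysRS-m (386.0) to CG13018. In ribosome biogenesis the next after eIF6 was Rrp40 (251.9), nearest to Eno.

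**Figure D4:**
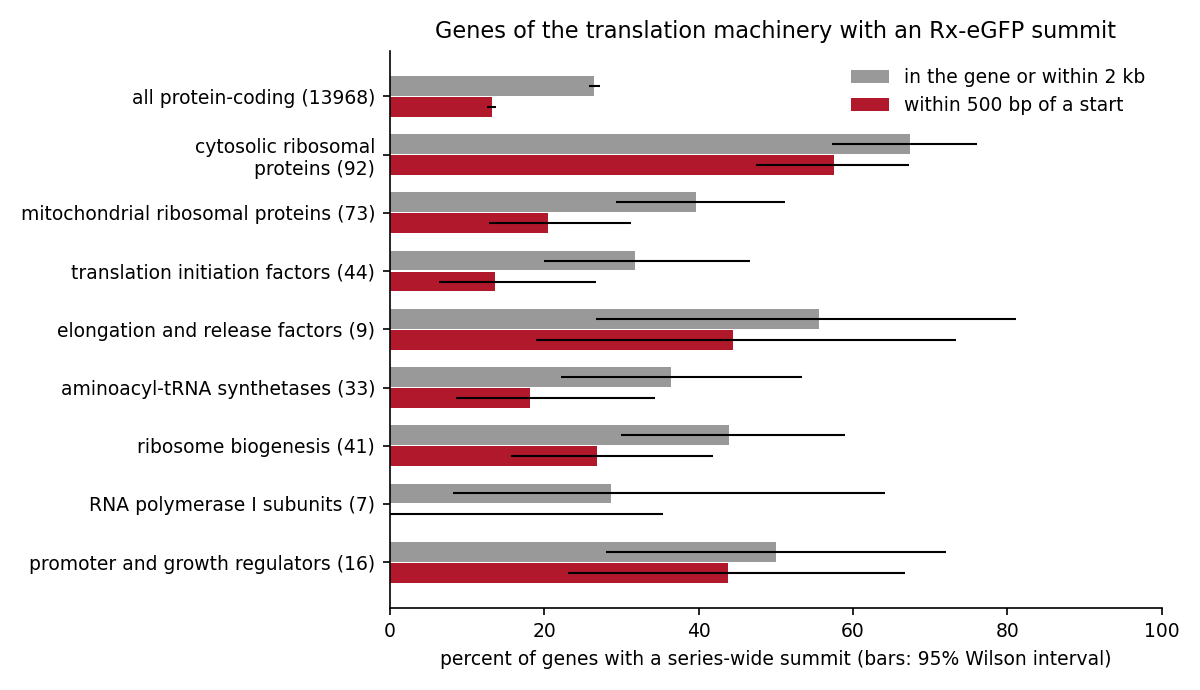
Percent of genes with a series-wide summit in the gene or within 2 kb (grey) and within 500 bp of a start (red), for all protein-coding genes and 8 lists, with the number of genes in brackets. Lines are 95% Wilson intervals. Cytosolic ribosomal proteins reach 67.4% and 57.6%, and mitochondrial ribosomal proteins 39.7% and 20.5%.

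Of 16 regulators of ribosomal protein promoters and of growth, 8 had a summit within 2 kb and 7 near a start. REPTOR, a transcription factor held in check by TORC1, had the highest, with 422.9, and row had 164.9. Dref, the gene of the DRE-binding factor, had 126.0, which is the peak of RpL13, since the starts of Dref and RpL13 face away from each other. The others were Mnt (129.5), pzg (115.5), Max (90.16), Myc (83.52) and M1BP (74.65). These heights are of the highest peak within 2 kb, which at Mnt lay 1120 bp before the nearest start of Mnt. Myc had no start summit. Trf2, Tbp, Taf1, foxo, gfzf, crc, Xrp1 and Mitf had none.

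Sequence motifs were counted from 250 bp before to 50 bp after a single start of each gene. This was the start nearest to the gene's start summit, or else to its summit within 2 kb. Genes with neither were given their most upstream start. Promoters with and without a summit were therefore placed by different rules, and the effect of this on the shares was not tested. The DREF site TATCGATA was in 17 of the 53 promoters with a start summit (32.1%, interval 21.1 to 45.5%), in 10 of the 39 without (25.6%, interval 14.6 to 41.1%), and in 9.03% of all promoters and 11.9% of those with a start peak. The BEAF-32 site CGATA, which lies inside it, was in 43 of 53 (81.1%, interval 68.6 to 89.4%) and 23 of 39 (59.0%, interval 43.4 to 72.9%), against 46.7% of all and 50.6% of those with a start peak. The polypyrimidine initiator CTTTNT, on the gene strand with its C within 10 bp of the start, was in 18 of 53 (34.0%, interval 22.7 to 47.4%) and 7 of 39 (17.9%, interval 8.98 to 32.7%), against 2.94% of all and 4.25% of those with a start peak. Only this exact word was counted. Other pyrimidine runs were missed, such as cttttc just after the starts of RpL23A, which had a summit, and RpL40, which had none. The M1BP site GGTCACAC was in 17.0% (interval 9.2 to 29.2%) and 15.4%, against 7.42% of all and 9.53% of those with a start peak. For each of these, the interval of the ribosomal protein promoters with a summit lay above the share of all promoters, and for all but the M1BP site above that of promoters with a start peak. Each overlapped the interval of the ribosomal protein promoters without a summit.

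The homeodomain core TAATTA was in 16 of 53 promoters with a summit (30.2%, interval 19.5 to 43.5%) and 10 of 39 without (25.6%), against 20.2% of all promoters and 22.8% of those with a start peak. The interval contained both of these shares, so the promoter window did not set the ribosomal protein genes apart for this core. Within 100 bp to each side of the summit it was in 6 of 53 (11.3%), against 17.1% of 1289 start peaks of all genes. No interval was computed around the summit. The TATA box TATAAA stood at 45.3% and 51.3%, near the 45.5% of all promoters, and at 17.0% around the summit, against 34.3%. DREF and BEAF-32 sites stood there at 32.1% against 6.28% and 69.8% against 36.2% of the start peaks of all genes. The E-box CAGCTG was in 13.2% and 7.69%, against 18.0% of all and 25.4% of those with a start peak, and the Ohler 7 element CATCNCTA in 11.3% and 7.69%, against 6.25% and 12.4%. The GAGA repeat GAGAGAG was in 0 of 53 and 0 of 39, against 6.13% and 8.06%. ACAGTG and ACACTG were searched because an earlier account of these data had found them at summits. They were in 24.5% and 32.1% of promoters with a summit, 17.9% and 33.3% of those without, and 24.7% and 27.2% of promoters of all genes with a start peak. Median GC content was 38.7% with a summit, 35.3% without, and 38.0% over all promoters.

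**Figure D5:**
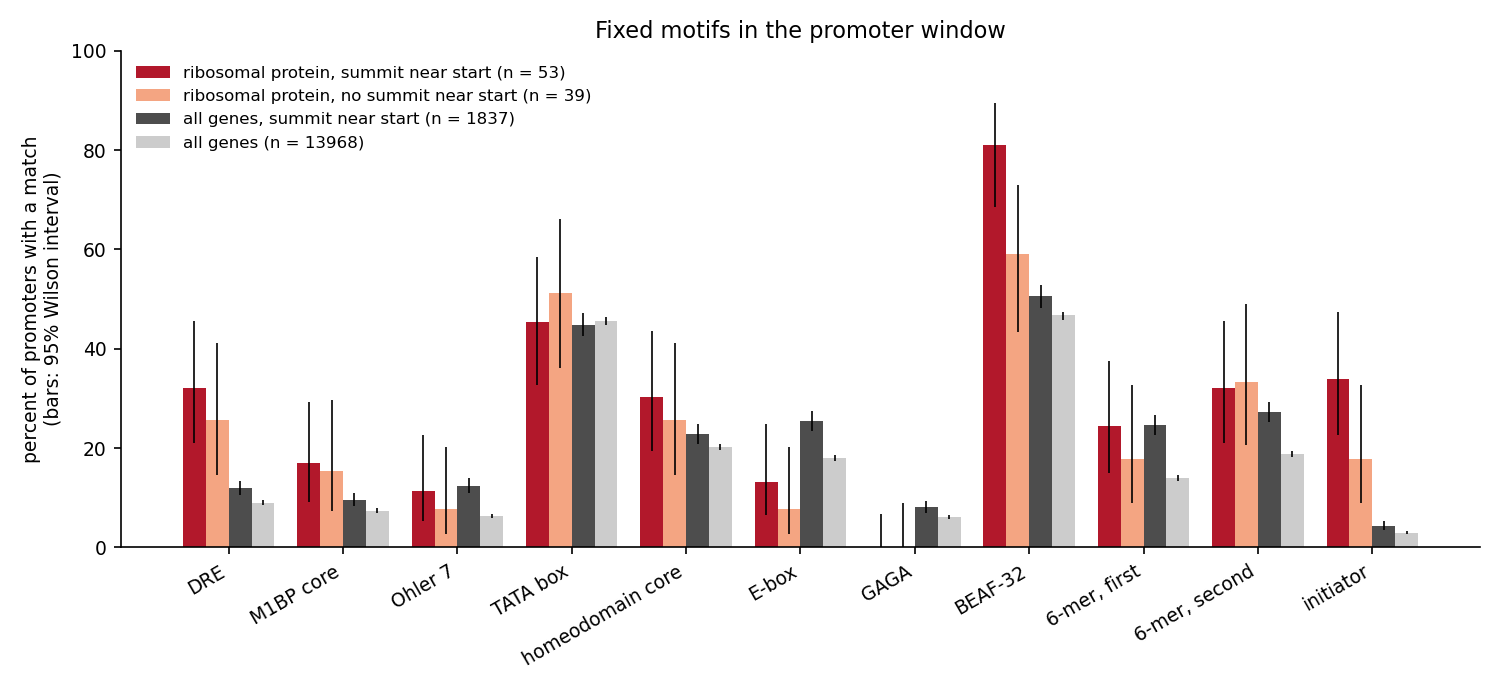
Percent of promoter windows that hold each fixed motif, for ribosomal protein genes with (red) and without (orange) a start summit, all genes with a start peak (dark grey) and all genes (light grey), with 95% Wilson intervals. The 6-mers are ACAGTG and ACACTG. The BEAF-32, DREF (DRE) and initiator bars stand above those of all genes. That of the homeodomain core stands at 30.2% against 20.2%, a share inside its interval.

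Start peaks had a median height of 133.0 in the 17 promoters with a DREF site and 154.9 in the 36 without, and of 145.7 in the 43 with CGATA and 193.6 in the 10 without. The medians were 146.4 with TAATTA and 151.6 without, and 150.8 with the initiator and 149.6 without. The Ohler 7 element had 94.22 in 6 promoters and 152.2 in the other 47, and the E-box 186.1 in 7 and 148.1 in the other 46. The M1BP site had 157.6 with and 147.5 without, TATAAA 149.1 and 151.6, ACAGTG 151.6 and 148.1, and ACACTG 151.6 and 149.1. These are descriptions over promoters of 1 set of libraries, with no test.

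Longer words were ranked after the values were seen, by their excess in the 53 promoters over all promoters, out of 10185 words of 8 bases found there. The first was CCGGAAAC, in 12 of the 53, in 1 of the 39 without a summit (RpL35A), and in 0.587% of all promoters and 1.2% of those with a start peak. The 12 genes included RpL11, RpL17, RpL18, RpL23, RpL27, RpL31, RpL32, RpL7A, RpL8, RpS10b and RpS18. It lay a median of 58 bp from the summit. AACTATCG, which holds the BEAF-32 core on its other strand, was in 15 of the 53 and 2 of the 39, against 3.42% of all. CAGCCAA was noticed by eye in the promoters printed above and counted afterwards. It was in 8 of the 53 and 0 of the 39, against 5.41% of all promoters and 3.54% of those with a start peak. Those 8 were RpL27A, RpL28, RpL34b, RpS19a, RpS21, RpS27, RpS28b and RpS6. The word lay 3 to 38 bp from the summit in these, with a median of 18 bp. Their heights ran from 57.83 at RpS6 to 427.4 at RpS27 with a median of 252.4, against 145.7 for the other 45, a difference to which the way the word was noticed contributes, since it was seen under the tallest peaks. The word ranking and these counts support no test, because the same promoters chose the words.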

How the data were processed

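Peak lists from 2 samples of 1 group were used as deposited on dm6, per the labels. Heights are the authors' deposited signal value per peak, of unknown scale, and the ranked lists hold the deposited −log10 global IDR. Neither aligner nor caller is named in the sources used here. No read counts were given, so depth is unknown. The series-wide conservative list was the main list, and replicate heights are those of the highest overlapping peak in each replicate's own ranked list. Genes came from Ensembl release 115 (BDGP6.54) and sequence from RefSeq Release 6. Positions are 1-based. Python 3.11.15, pandas 2.3.3, numpy 2.4.6, scipy 1.17.1 and Biopython 1.88 were used, and assignment was tested on simulated data. Paralogs were paired by symbol (a final a or b, or the suffix -like). Members, gene lists, motifs and tests were chosen with earlier results of these data known. Named are the 12 highest peaks, the 6 lowest, genes with several summits, genes in some lists only, split paralogs, unbound genes and the 2 highest of other lists. The 2 unbound promoters and the printed window were chosen after values were seen. Alternatives were another series-wide list, single replicates, the highest 50% of peaks, other flanks and distances, and summit windows. Some genes that the naming rule takes are counted but not reported by name here.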

Additional observations from a re-analysis of the deposited data

Results flagged for a closer look

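The ranked list of the series holds a peak at the start of RpL13A, 3R:5624307-5624590, that is not in the thresholded list. Its height was 134.8, with 56.32 in replicate 1 and 80.31 in replicate 2, its summit lay 25 bp before the start, and its −log10 global IDR was 3.79, above the 2.0 that is the lowest value in the thresholded list. It was singled out because it passes the threshold's value in the ranked list and yet is in none of the thresholded lists from which bound genes were counted. On the arms, 83 ranked peaks passed that value without being in the thresholded list, and RpL13A was the only ribosomal protein gene within 2 kb of one. Why these peaks are absent was not tested.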

How the results depend on the processing

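The count of ribosomal protein genes with a summit within 2 kb was 62, and it was 55 to 58 in the replicates alone. It fell to 16 of 92 with no flank, against 9.4% of all genes, since most summits lie just before the start. The count near a start stayed within 1.5 times under all 6 alternatives. Median height over the 60 highest peaks within 2 kb was 147.5, 153.9 in the highest 50% of peaks, and 74.7 to 79.9 in single replicates, whose lists hold their own signal values. Among the other lists, single replicates gave 3 to 5 elongation and release factors, 1 RNA polymerase I subunit and 10 to 13 biogenesis factors. All genes stood at 21.3% in replicate 1 and 20.0% in replicate 2. Elongation and release factors stood at 33.3% and 55.6%, and biogenesis factors at 31.7% and 24.4%. Polymerase subunits, at 14.3% in each, were under the share of all genes. With no flank, counts were 2 mitochondrial ribosomal proteins, 4 initiation factors, 2 elongation factors, 1 synthetase, 1 biogenesis factor, 0 polymerase subunits and 3 regulators, so that mitochondrial ribosomal proteins (2.74%), initiation factors (9.09%), synthetases (3.03%), biogenesis factors (2.44%) and polymerase subunits were under the 9.4% of all genes. At 500 bp they were 18 mitochondrial proteins, 6 synthetases (18.2%) and 0 polymerase subunits, against 19.2% of all genes. At 10 kb they were 46 mitochondrial proteins, 25 initiation factors, 22 synthetases, 32 biogenesis factors and 4 polymerase subunits, against 51.6% of all genes. Ribosomal proteins stood at 73 of 92 there (79.3%), about level with biogenesis factors (78%). In the less strict series-wide list, elongation and release factors (6 of 9, 66.7%) stood close to ribosomal proteins (69.6%). Giving each summit to the nearest start left 8 mitochondrial proteins, 6 initiation factors, 4 synthetases, 7 biogenesis factors, 1 polymerase subunit (14.3%) and 5 regulators, against 17% of all genes. The highest 50% of peaks left 18 mitochondrial proteins, 3 elongation factors, 7 synthetases, 10 biogenesis factors and 1 polymerase subunit (14.3%), against 16.2% of all genes. In summit windows the TATA box fell to 17.0%, TAATTA to 11.3% and ACAGTG to 13.2%, under the 34.3%, 17.1% and 19.9% of the start peaks of all genes. No paired analysis was possible because there is 1 group. Depth, unknown here, limits which low peaks could be listed.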
